A study of Mus musculus with 12 samples.

Results

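The comparison described here is between day 3 lesions of the spinal cord white matter in middle-aged mice, at 8 months, and in young mice, at 6 weeks. Its members were chosen by the group labels alone: 3 pools labelled young injured and 3 labelled middle-aged injured, 6 of the 12 samples of the series, with every gene that passed an expression filter. The other 6 samples, 3 young naive and 3 middle-aged naive pools, are uninjured white matter of the same region and stand beside the lesions as a background. All mice were C57Bl6. Lysolecithin, a detergent-like lipid that strips myelin and kills oligodendrocytes, was injected into the ventrolateral white matter of the thoracic cord, and the lesion was cut out by laser capture 72 h later. Each pool held tissue from 5 mice and was sequenced as 1 RNA library, so that a library is a mean over animals and the spread between pools is smaller than that between mice. The pools carry no mark of a shared litter, batch or day. The groups differed in age alone as far as the labels and the study's methods say, and the mice at the earlier age were at an age when the cord is still gaining myelin.

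In a lysolecithin lesion, microglia of the cord and macrophages that enter from the blood remove the broken myelin, and oligodendrocyte progenitor cells migrate in, divide and mature into cells that wrap the bare axons again. Phagocytes take up myelin through scavenger receptors, digest it in lysosomes and have to store or export its cholesterol. They also release chemokines and cytokines that call in further cells. Perivascular and meningeal fibroblasts lay down collagen in many injuries of the cord. At day 3 a lesion of this kind is dominated by phagocytes, and remyelination has hardly begun.

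Depth was even, from 11298746 to 12546383 counts per lesion pool, and 3 counts, the level taken as the floor of detection, came to 0.239 to 0.266 CPM, the count scaled to a fixed library size. Pools of the same group correlated at 0.979 to 0.988 across genes and pools of different age at 0.976 to 0.981 (Pearson's r of log2 CPM). No 2 pools agreed within counting noise. In a principal component analysis of the 6 lesion pools, the first component, with 36.6% of the variance, placed the young pools between -23.2 and -23.0 and the middle-aged pools between 14.2 and 34.7. The second, with 22.1%, separated middle-aged replicate 2 at 26.9 from middle-aged replicate 3 at -35.0, so the middle-aged pools were the less alike. The ribosomal RNA gene mt-Rnr2 took 7.61 to 12.4% of the counts of a lesion pool, with the ages overlapping. The labelled tissue was checked against marker lists. The summed level of 15 genes of disease-associated microglia was 19988 to 28410 CPM in lesion pools and 1363 to 2115 CPM in naive pools, whereas 20 genes of mature oligodendrocytes summed to 10300 to 24650 CPM in lesion pools and 60669 to 114682 CPM in naive pools.

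Of 46078 genes in the table, 15866 were tested. The adjusted p (edgeR's quasi-likelihood test with all 12 pools in the model, Benjamini-Hochberg over all genes tested) was under 0.05 for 182 genes, 1.15% of those tested, and these are the genes called below. Of these, 38 (0.240%) were higher and 144 (0.908%) lower in the middle-aged lesions. All log2 differences are given as middle-aged minus young. At least a 2-fold difference was seen in 25 of the 38 and in 69 of the 144, and the median log2 difference was 1.30 and -0.99, against 0.0022 over all genes tested. The 3 pools of one age lay apart from the 3 of the other for all 182, as they did for 23.3% of all genes tested. With only the 6 lesion pools in the model, 15048 genes were tested and 818 (5.44%) called, 325 (2.16%) higher and 493 (3.28%) lower, among them 181 of the 182. That model estimates the spread from lesions alone, and it raised the share of higher genes among the calls from 20.9% to 39.7%. With 1 lesion pool left out the count was 102, 59 and 47 without young replicates 1, 2 and 3, and 53, 45 and 140 without middle-aged replicates 1, 2 and 3. Without middle-aged naive replicate 2 it was 410.

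**Figure D1:**
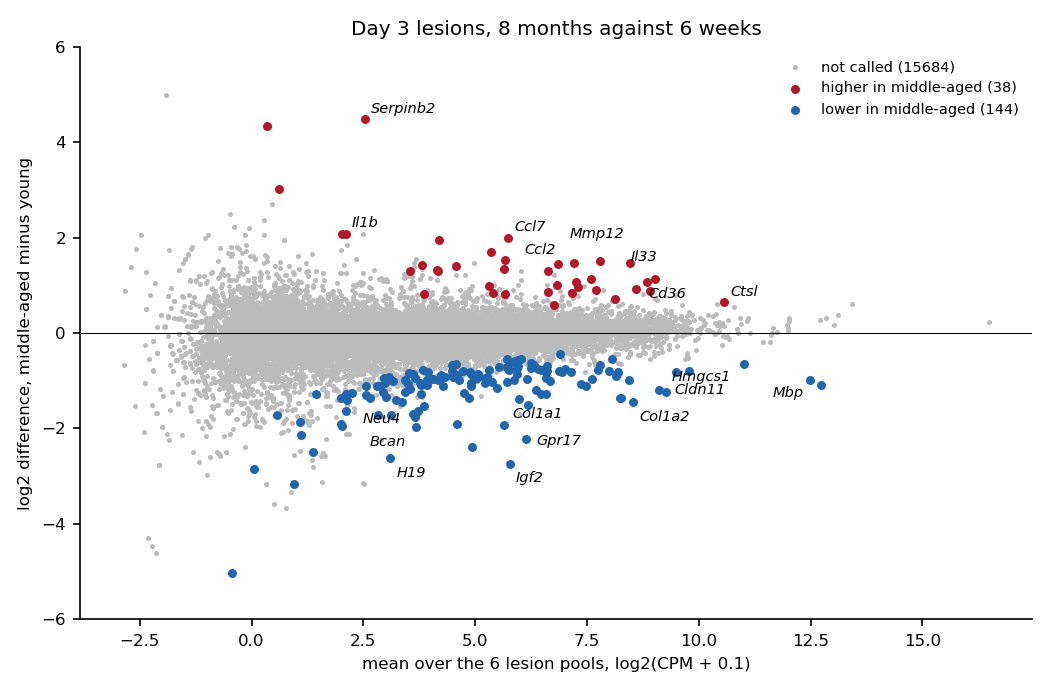
Log2 difference between middle-aged and young day 3 lesions (y axis) against the mean level over the 6 lesion pools as log2(CPM + 0.1) (x axis), 1 point per gene tested. The 38 higher genes (red) include chemokines and scavenger receptors. The 144 lower genes (blue) include Mbp, at the right of the plot, and Igf2, H19 and Gpr17, which lie further below 0 than Mbp. Genes that were not called are grey.

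The called genes were set against 59 lists of cell type markers and programmes, which hold 57 of the 182, while 125 are on none of them. The lists were chosen with earlier results of these data known, so the counts below are a description. Over all genes tested, 0.240% were called higher and 0.908% lower. Higher genes lay in the lists of chemokine ligands (4 of 16 tested), chemoattractant receptors (2 of 13), interleukin-1 and inflammasome genes (2 of 16) and scavenger receptors (2 of 18), and no gene of these was lower. Lower genes lay in the lists of mature oligodendrocytes (11 of 20), structural myelin proteins (9 of 16), cholesterol synthesis (9 of 20), fibroblasts (5 of 14), other matrix (4 of 21) and progenitors of oligodendrocytes (3 of 15), and no gene of these was higher. Some genes are on several lists and are counted in each. Cldn11, for example, is on those of oligodendrocytes, myelin proteins and fibroblasts.

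**Figure D2:**
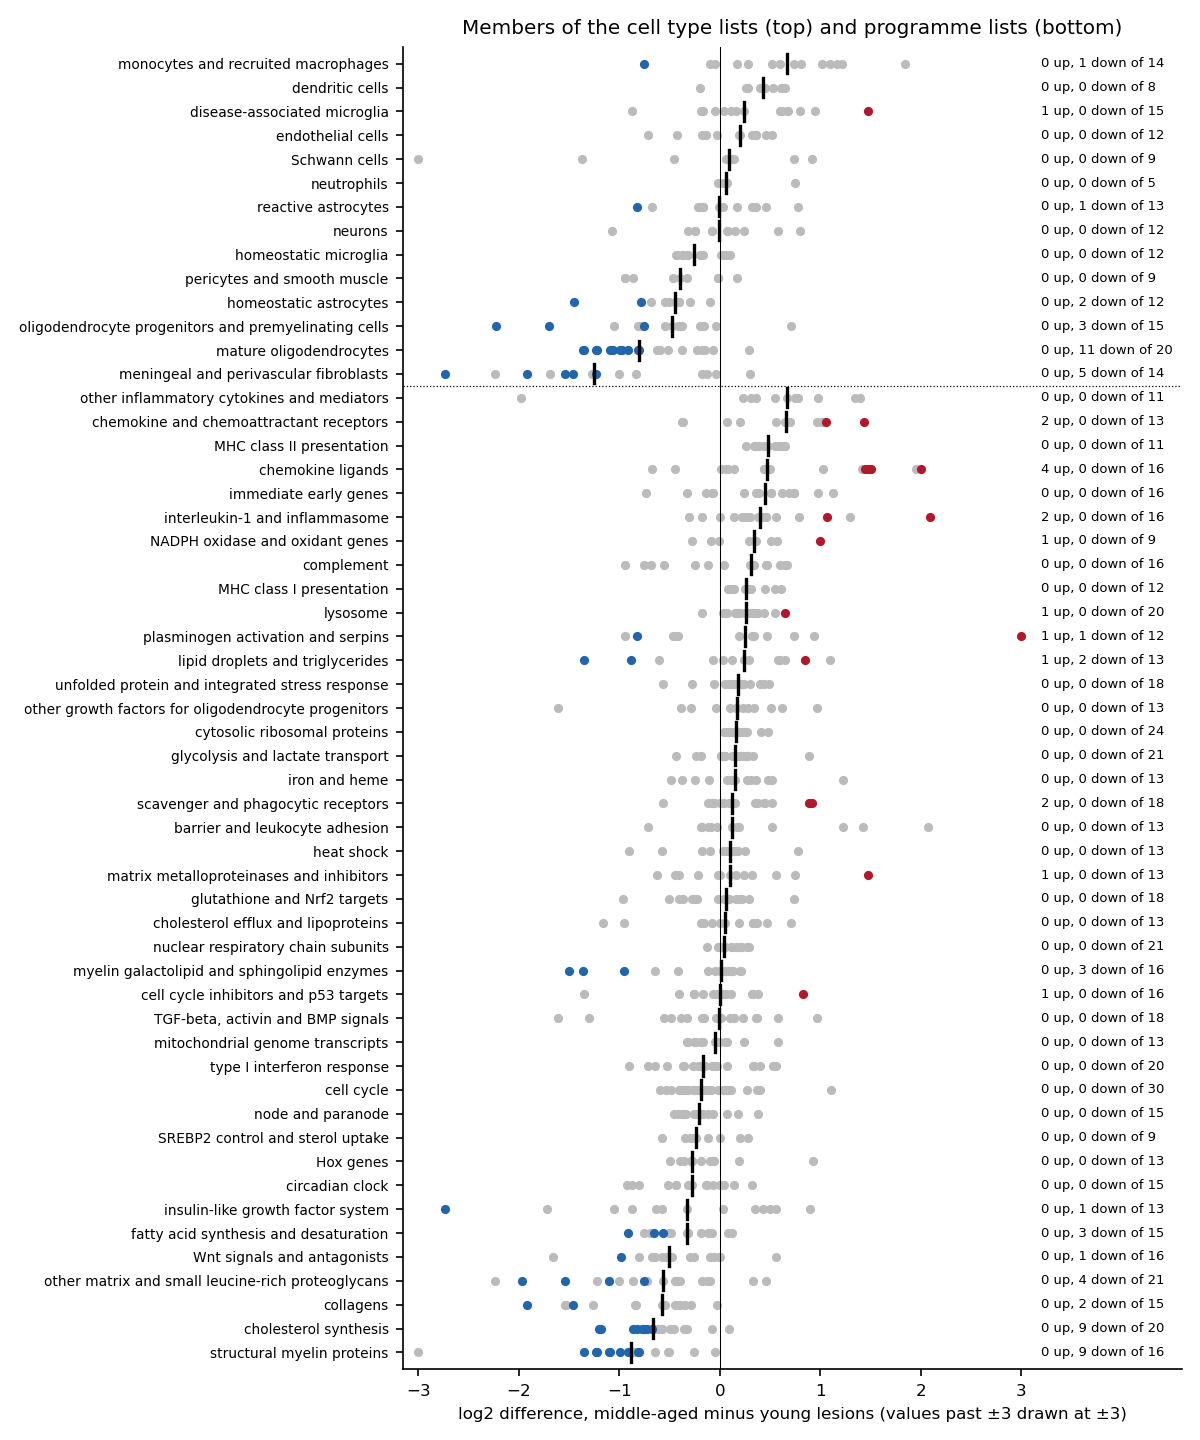
Log2 difference between middle-aged and young lesions (x axis) for each tested member of the lists with at least 5 tested members (rows; cell types above the dotted line, programmes below it), with members called higher in red, called lower in blue and not called in grey. The black bar is the median of the list and the counts at the right give the members called; structural myelin proteins and cholesterol synthesis stand at the bottom and the inflammatory mediators and chemoattractant receptors at the top of the programmes.

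Chemokines that attract monocytes were higher in the middle-aged lesions. Ccl7, a ligand of the monocyte receptor CCR2, stood at 26.2, 22.5 and 15.3 CPM in the young pools and at 92.8, 92.4 and 71.3 CPM in the middle-aged pools, and the groups were far apart. Its log2 difference was 2.0 ± 0.24 (SE, n = 3 pools per group), with an adjusted p of 0.00142. Its neighbour Ccl2, the other main ligand of that receptor, stood at 72.7, 64.1 and 49.3 CPM against 179, 164 and 165 CPM, a log2 difference of 1.45 ± 0.28 (adjusted p = 0.0205). Ccl9 and Ccl6, which act on the receptor CCR1, lie further along the same chromosome. Ccl9 rose from 148, 93.2 and 108 CPM to 322, 412 and 254 CPM (log2 difference 1.5 ± 0.22, adjusted p = 0.00405). Ccl6 rose from 213, 196 and 150 CPM to 523, 676 and 355 CPM (1.47 ± 0.24, adjusted p = 0.00921). The highest young pool was below the lowest middle-aged pool for each of the 4. In GRCm38 (GENCODE M21) Ccl2 and Ccl7 lie side by side on the plus strand of chromosome 11, at 82035571 to 82037453 and 82045712 to 82047525, and Ccl9 and Ccl6 on the minus strand at 83572919 to 83578636 and 83587882 to 83593087. Of the 16 chemokine ligands tested, 14 had a positive difference, the median was 0.47, and their summed level was 484 to 643 CPM in young and 1033 to 1547 CPM in middle-aged lesions. Without 1 of the pools the call of Ccl2 was lost in 6 of 12 cases and that of Ccl6 in 3, while Ccl7 and Ccl9 were called each time.

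A receptor of these ligands was higher as well. Ccr1 stood at 7.63, 8.99 and 5.8 CPM in young and at 21.0, 22.0 and 17.5 CPM in middle-aged lesions (log2 difference 1.43 ± 0.28, adjusted p = 0.0237). No young pool reached the lowest middle-aged pool. Ccr2, the receptor of Ccl2 and Ccl7 and a mark of blood-derived monocytes, stood at 65.8, 79.9 and 48.3 CPM against 122, 157 and 113 CPM. Its log2 difference of 1.02 ± 0.25 missed the threshold with all pools in the model (adjusted p = 0.0821) and passed it with the lesion pools alone (0.00659). In that model 7 of the 13 receptors tested were called, all higher, and 8 of the 13 had every middle-aged pool above every young pool (11.1% of all genes tested).

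Both called genes of the interleukin-1 list were ligands of the family. Il33, an alarmin that is made by oligodendrocytes and astrocytes in the cord and released on damage, stood at 276, 271 and 344 CPM in young and 559, 656 and 650 CPM in middle-aged lesions, a log2 difference of 1.07 ± 0.15 (adjusted p = 0.00405), and it was called without any 1 of the 12 pools. Il1b, the central inflammatory cytokine of activated phagocytes, was low, at 1.1, 2.33 and 1.36 CPM against 7.14, 6.95 and 6.3 CPM (2.09 ± 0.46, adjusted p = 0.0443). All its values were above the floor, the call was lost without 1 of the pools in 7 of 12 cases, and its exons overlap those of the antisense gene Il1bos, so that reads of the 2 cannot be told apart unless strand was counted. Of the 16 genes of this list 14 had a positive difference, with a median of 0.40, and their sum rose from 623 to 683 CPM to 1051 to 1108 CPM, most of it Il33. Of 11 other cytokines and mediators tested, 10 had a positive difference (median 0.67) and none was called. Ptgs2, which makes prostaglandins, stood at 11.8, 6.59 and 5.27 CPM against 18.1, 17.6 and 24.6 CPM (1.35 ± 0.34, adjusted p = 0.0832), and Lif, a cytokine that acts on oligodendrocytes, at 8.81, 5.50 and 5.87 CPM against 15.0, 26.4 and 11.7 CPM (1.39 ± 0.41, adjusted p = 0.145). Il23a went the other way at the edge of detection, at 1.39, 1.71 and 1.88 CPM against 0.249, 0.559 and 0.432 CPM (-1.98 ± 0.48, adjusted p = 0.0705).

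Scavenger receptors for oxidised lipid and myelin debris were higher as well. Cd36, a receptor for oxidised lipids and fatty acids on chromosome 5 (17781690 to 17888801, minus strand), stood at 267, 242 and 297 CPM in young and 551, 520 and 450 CPM in middle-aged lesions, a log2 difference of 0.92 ± 0.13 (adjusted p = 0.00401) that was called without any 1 of the 12 pools. Msr1, the class A scavenger receptor, stood at 395, 299 and 316 CPM against 657, 743 and 468 CPM (0.89 ± 0.18, adjusted p = 0.0271). No pool of one age reached into the other for either gene. The remaining 16 receptors tested were not called, and the median of all 18 was 0.12, so the list as a whole stayed near the median of all genes. In naive white matter Cd36 was at 0.670 ± 0.052 CPM in young and 1.71 ± 0.50 CPM in middle-aged pools (SD, n = 3), and Msr1 at 0.339 ± 0.219 and 2.24 ± 0.49 CPM, both called higher in the middle-aged naive tissue (adjusted p = 0.0299 and 0.00521). Hcar2, the receptor for niacin on these cells, stood at 29.9, 30.6 and 22.7 CPM against 44.5, 47.7 and 42.7 CPM. The groups did not overlap, but its log2 difference of 0.70 ± 0.24 did not pass the test with all pools in the model (adjusted p = 0.262), and it passed with the lesion pools alone (0.00898).

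Further higher genes were single calls from separate lists, or stood on no list. Mmp12, the macrophage elastase, stood at 65.6, 85.9 and 83.6 CPM in young and 298, 218 and 138 CPM in middle-aged lesions (log2 difference 1.47 ± 0.30, adjusted p = 0.0271). Ctsl, a lysosomal protease, stood at 1149.8, 1293 and 1108 CPM against 2160.2, 1873 and 1545 CPM (0.65 ± 0.14, adjusted p = 0.0448), and it was the only called gene of 20 lysosomal genes, of which 19 had a positive difference (median 0.26). Fabp4, a fatty acid carrier of macrophages and fat cells, stood at 29.8, 30.5 and 29.6 CPM against 61.5, 45.2 and 55.2 CPM (0.85 ± 0.18, adjusted p = 0.0448). Xdh, which makes uric acid and superoxide, stood at 25.3, 26.7 and 26.8 CPM against 56.9, 58.1 and 42.3 CPM (1.0 ± 0.19, adjusted p = 0.0204). The middle-aged pools varied more than the young pools for Mmp12, Ctsl, Fabp4 and Xdh, and no groups overlapped. Gadd45a, a stress gene induced by p53, stood at 10.1, 9.22 and 11.5 CPM against 17.3, 19.96 and 17.4 CPM (0.82 ± 0.18, adjusted p = 0.0387). Serpinb2, an inhibitor of urokinase made by activated macrophages, had the largest difference of the 38 higher genes but rested on few reads: it stood at 0.514, 0.775 and 0.151 CPM against 5.31, 24.0 and 3.45 CPM (4.49 ± 0.75, adjusted p = 0.00921), with young replicate 3 under the floor, and its exons overlap those of Serpinb10. On no list were Gdf3, Naalad2, Slamf8 and G530011O06Rik. Gdf3, a growth factor of the TGF-beta family seen in phagocytes loaded with lipid, rose from 16.4, 23.3 and 18.1 CPM to 69.7, 70.4 and 47.3 CPM (1.70 ± 0.33, adjusted p = 0.0212). Naalad2, a peptidase, rose from 7.49, 8.29 and 6.55 CPM to 28.4, 32.98 and 24.95 CPM (1.95 ± 0.33, adjusted p = 0.00954), and Slamf8, a surface receptor of macrophages, from 1.1, 2.17 and 1.28 CPM to 7.8, 4.63 and 6.73 CPM (2.07 ± 0.43, adjusted p = 0.0336). The transcript G530011O06Rik, which shares exons with Mid1, rose from 26.7, 32.9 and 18.98 CPM to 101, 67.95 and 56.5 CPM (1.52 ± 0.30, adjusted p = 0.0236).

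**Figure D3:**
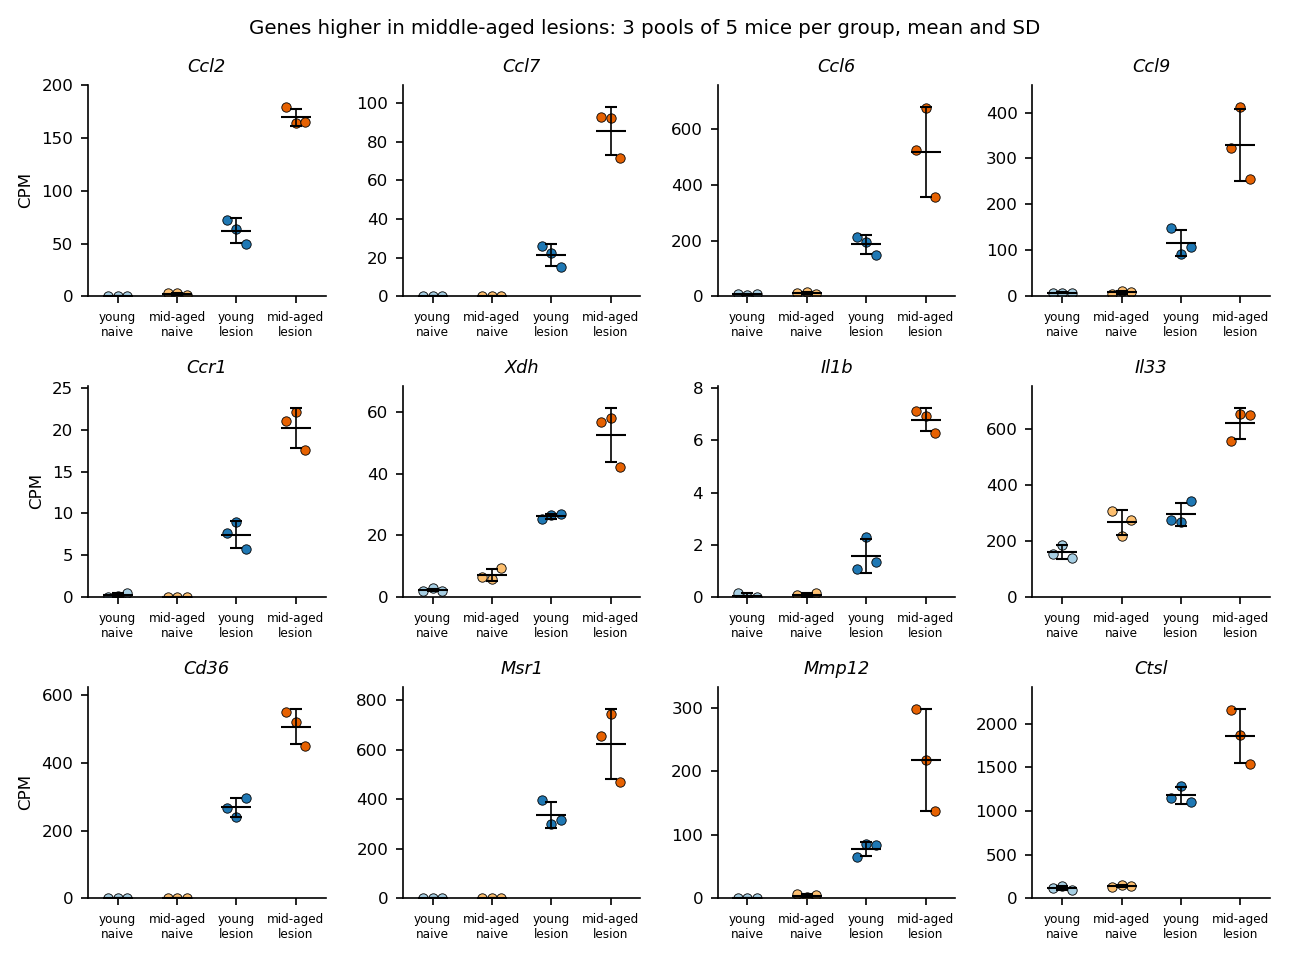
CPM (y axes, from 0) in each pool for 12 genes called higher in the middle-aged lesions, with young naive, middle-aged naive, young lesion and middle-aged lesion pools from left to right, 1 point per pool and a bar for the mean and SD. In every panel the 3 middle-aged lesion pools lie above the 3 young lesion pools, and Ccl2, Ccl7, Il1b, Cd36 and Msr1 are close to 0 in naive tissue.

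Markers of phagocytes themselves were less clear. Of 15 genes of disease-associated microglia 11 had a positive difference, the median was 0.24, and Ccl6 alone was called, while 6 were called higher and 1 lower with the lesion pools alone. Their sum was 19988 to 20507 CPM in young and 22961 to 28410 CPM in middle-aged lesions. The largest part of that sum was Spp1, an abundant gene of lipid-laden phagocytes. Spp1 stood at 9412, 8383 and 8455 CPM against 14013, 14445 and 11783 CPM (0.62 ± 0.25, adjusted p = 0.401), and Fabp5, a fatty acid carrier, at 999, 1239 and 998 CPM against 1903, 1476 and 1536 CPM (0.60 ± 0.16, adjusted p = 0.104). Clec7a, a receptor of activated microglia, stood at 213, 193 and 207 CPM against 399, 295 and 289 CPM (0.68 ± 0.20, adjusted p = 0.141). Of 14 markers of monocytes and recruited macrophages 11 had a positive difference (median 0.67), and the one called, Vcan, was lower. In the model of the lesion pools alone 6 of the 14 were called higher and 1 lower. Over all genes tested in that model the shares were 2.16% and 3.28%. For 7 of the 14 every middle-aged pool lay above every young pool, as for 11.1% of all genes tested. Cd14 stood at 62.8, 67.4 and 64.2 CPM against 137, 213 and 102 CPM (1.22 ± 0.30, adjusted p = 0.0768). The median of 12 markers of homeostatic microglia was -0.26 and none was called, with P2ry12 at 40.9, 43.0 and 47.8 CPM against 35.4, 29.5 and 33.0 CPM (-0.43 ± 0.17, adjusted p = 0.387) and Cx3cr1 at 115, 105 and 120 CPM against 87.8, 96.1 and 78.6 CPM (-0.37 ± 0.15, adjusted p = 0.401). With the lesion pools alone 1 of the 12, P2ry12, was called lower (adjusted p = 0.0419) and none higher. The sums of the other lists overlapped between the ages, at 1843 to 2078 CPM in young and 1923 to 2353 CPM in middle-aged lesions for monocytes and recruited macrophages and at 4997 to 5389 CPM and 4090.1 to 5796 CPM for homeostatic microglia. In the sum for monocytes and recruited macrophages Fn1 alone averaged 1044 CPM in young and 975 CPM in middle-aged lesions. The part of microglia and macrophages in the phagocyte genes that rose was not tested. In bulk tissue, more cells of a type and more RNA per cell cannot be told apart, and the same holds for every fall below.

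Genes of myelin and of the cells that make it were lower in the middle-aged lesions. Mbp, which holds the myelin layers together, was even in the young pools, at 7733, 7579.7 and 7646 CPM, and more spread in the middle-aged pools, at 3406, 3028 and 5112 CPM (log2 difference -0.99 ± 0.17, adjusted p = 0.00921). Cldn11, the tight junction protein of the myelin sheath, stood at 731, 874 and 1008 CPM against 334, 374 and 401 CPM (-1.24 ± 0.13, adjusted p = 0.00133). No pool of one age reached into the other. Mal, a sorting protein of myelin lipid rafts, stood at 363, 501 and 451 CPM against 161, 134 and 219 CPM (-1.35 ± 0.18, adjusted p = 0.00390). Tspan2 stood at 202, 271 and 255 CPM against 115, 86.6 and 137 CPM (-1.10 ± 0.16, adjusted p = 0.00468), and Mog, a surface protein of the outermost sheath, at 155, 190.1 and 196 CPM against 94.5, 97.6 and 115 CPM (-0.81 ± 0.14, adjusted p = 0.00981). Enpp2, an oligodendrocyte enzyme that makes lysophosphatidic acid, stood at 192, 236 and 245 CPM against 113, 83.8 and 126 CPM (-1.06 ± 0.16, adjusted p = 0.00537). Of 16 structural myelin genes tested, all had a negative difference, 9 were called, and the median was -0.88. The 20 genes of mature oligodendrocytes had a median of -0.81 and summed to 21642 to 24650 CPM in young against 10300 to 15205 CPM in middle-aged lesions.

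Of 16 enzymes of galactolipids and sphingolipids 3 were called, all lower and all of the galactolipids of myelin. Ugt8a, which makes galactosylceramide, stood at 376, 436 and 489 CPM in young and 173, 129.7 and 203 CPM in middle-aged lesions (log2 difference -1.36 ± 0.17, adjusted p = 0.00175). Fa2h, which adds the hydroxyl group typical of myelin fatty acids, stood at 99.3, 106 and 114 CPM against 40.6, 28.2 and 43.9 CPM (-1.50 ± 0.17, adjusted p = 0.00133). Gal3st1, which adds sulfate to make sulfatide, stood at 19.7, 19.8 and 24.9 CPM against 11.8, 10.7 and 10.6 CPM (-0.96 ± 0.19, adjusted p = 0.0275). The median of the 16 was 0.01, with 9 positive and 7 negative differences, and 4 were called lower with the lesion pools alone. Of 15 genes of the node and paranode none was called (median -0.20).

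Of 15 markers of progenitors and of cells on the way to myelination, 3 were called, all lower, and 12 were not. Gpr17, a receptor of committed progenitors, stood at 62.9, 144 and 141 CPM in young and 32.7, 19.3 and 22.3 CPM in middle-aged lesions (log2 difference -2.22 ± 0.38, adjusted p = 0.0102), and young replicate 1 was well below the other young pools. Gpr17 lies within Lims2, whose exons it shares, and Lims2 moved in the same way (20.7, 79.9 and 53.5 CPM against 12.2, 8.86 and 8.12 CPM, -2.40 ± 0.40, adjusted p = 0.00921), so which of the 2 the reads came from is uncertain. Neu4, a sialidase of oligodendrocyte cells, stood at 13.4, 20.5 and 21.7 CPM against 7.22, 4.55 and 5.27 CPM (-1.70 ± 0.25, adjusted p = 0.00468). Vcan, a proteoglycan of progenitors and of some monocytes, stood at 134, 163 and 186 CPM against 101, 94.3 and 90.9 CPM (-0.75 ± 0.17, adjusted p = 0.0441). Vcan is also on the monocyte list. Markers that were not called, chosen here after their values were seen, include the progenitor receptor Pdgfra, with means of 169 CPM in young and 166 CPM in middle-aged lesions (-0.03), and Olig2, a transcription factor of the lineage, with 70.7 and 61.5 CPM (-0.20). Bcas1, a marker of premyelinating cells, lay the other way, with means of 397 and 649 CPM and every middle-aged pool above every young pool (0.71 ± 0.19, adjusted p = 0.109). DESeq2 called 1 member of the list higher and 4 lower. The model of the lesion pools alone called 5 lower and none higher, where it called 3.28% of all genes lower. Of the 15 markers, 14 had a negative difference and the median was -0.48, but their sum overlapped, at 1541 to 1803 CPM in young and 1326 to 1798 CPM in middle-aged lesions. Dcx, a microtubule protein of immature neurons that progenitors can also express, stood at 11.8, 12.5 and 15.3 CPM against 4.07, 4.63 and 3.28 CPM (-1.72 ± 0.24, adjusted p = 0.00392). Shisal1, whose role is not established, stood at 13.3, 21.5 and 22.9 CPM against 5.4, 5.11 and 6.56 CPM (-1.76 ± 0.21, adjusted p = 0.00142), and Mycl, a transcription factor of the Myc family, at 5.73, 13.4 and 13.03 CPM against 3.24, 3.51 and 3.02 CPM (-1.71 ± 0.35, adjusted p = 0.0271). None of 30 cell cycle genes was called (median -0.19), and none of 13 growth factors for progenitors.

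Cholesterol is needed in bulk by a cell that makes myelin, and the genes of its synthesis were lower almost throughout. Hmgcs1, cytosolic HMG-CoA synthase, lies on chromosome 13 (119690379 to 119708260, plus strand). It stood at 783, 717 and 818 CPM in young and 336, 312 and 370.0 CPM in middle-aged lesions, a log2 difference of -1.19 ± 0.14 (adjusted p = 0.00142), with little spread within either age. SREBP2, the factor that drives this pathway when sterols are low, binds sterol regulatory elements. RefSeq promoter windows (GRCm38.p6, 250 bases before to 50 after the start of transcription) were at hand for 15 of the 20 genes of the list, matched by symbol, and were searched on both strands for the letters TCACNCCAC. The window of 1 of the 15, Hmgcs1, holds them, as do 408 of all 32851 windows (1.24%). The match is a description and no test of binding. It is shown because it lies before an early enzyme of the pathway that was called without any 1 of the 12 pools, it begins 137 bases before the RefSeq start of transcription, which lies upstream of the GENCODE gene start given above, and capitals mark the letters searched:
Hmgcs1, chr13:119690204-119690232, plus strand: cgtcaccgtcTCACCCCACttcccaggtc

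Cyp51, a demethylase of the pathway, stood at 87.3, 72.6 and 77.7 CPM in young and 46.6, 34.7 and 49.3 CPM in middle-aged lesions (log2 difference -0.86 ± 0.14, adjusted p = 0.00921), Lss, which closes the sterol rings, at 38.0, 32.7 and 42.3 CPM against 22.5, 19.5 and 21.8 CPM (-0.83 ± 0.15, adjusted p = 0.0152), and Dhcr7, which makes the last step, at 66.7, 64.6 and 65.2 CPM against 40.2, 38.5 and 40.4 CPM (-0.72 ± 0.15, adjusted p = 0.0305). All middle-aged pools were below all young pools for each of these genes and for 17 of the 20 in the list, as they were for 12.2% of all genes tested. Of the 20, 19 had a negative difference. The median was -0.66, and the summed level was 1919 to 2092 CPM in young and 1175 to 1329 CPM in middle-aged lesions. The uptake side was not called: of 9 genes of SREBP2 control and sterol uptake none passed, with a median of -0.24. The 13 genes of cholesterol efflux and lipoproteins, which phagocytes use to pass on myelin cholesterol, had a median of 0.05 and none was called.

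Fatty acid genes followed in part. Acss2, which makes acetyl-CoA from acetate, stood at 30.8, 29.4 and 28.7 CPM in young and 15.5, 16.3 and 15.2 CPM in middle-aged lesions (log2 difference -0.92 ± 0.14, adjusted p = 0.00652). Scd2, the desaturase of oligodendrocytes, stood at 2300.4, 2478 and 2738 CPM against 1550.4, 1316 and 1913 CPM (-0.65 ± 0.14, adjusted p = 0.0374), and Elovl6, an elongase, at 71.0, 71.3 and 80.3 CPM against 45.1, 53.8 and 51.4 CPM (-0.57 ± 0.12, adjusted p = 0.0392). The other 12 genes of the list were not called, and 13 of the 15 had a negative difference (median -0.33). In the list of lipid droplets and triglycerides, Mgll, which splits monoglycerides, stood at 34.9, 45.6 and 47.7 CPM against 24.1, 23.2 and 22.4 CPM (-0.88 ± 0.16, adjusted p = 0.0121), and Dgat2, which makes triglycerides, at 4.99, 4.65 and 7.30 CPM against 1.74, 2.95 and 1.90 CPM (-1.35 ± 0.30, adjusted p = 0.0448), the reverse of Fabp4. The falls of sterol and fatty acid genes went with the fall of the oligodendrocyte markers given above, and the part of these cells in them was not tested.

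Of 12 genes of astrocytes in their resting state 2 were called lower and 10 were not called. Ntsr2, a neurotensin receptor of astrocytes, stood at 13.9, 16.9 and 13.9 CPM in young and 4.98, 4.31 and 7.08 CPM in middle-aged lesions (log2 difference -1.45 ± 0.17, adjusted p = 0.00142). Gja1, the gap junction protein connexin 43, stood at 241, 298 and 272 CPM against 155, 141 and 176 CPM (-0.78 ± 0.12, adjusted p = 0.00524). All 12 had a negative difference (median -0.44), and their sums overlapped, at 2828 to 3477 CPM in young and 1919 to 2875 CPM in middle-aged lesions. Of 13 reactive markers Serpina3n, a protease inhibitor, was called lower, at 719.6, 1068 and 986 CPM against 505, 545 and 518 CPM (-0.82 ± 0.18, adjusted p = 0.0468), and the call was lost in 9 of 12 cases when 1 pool was left out. Hspb1, a small heat shock protein, lay the other way, at 24.0, 19.5 and 18.8 CPM against 31.8, 37.5 and 37.6 CPM (0.78 ± 0.19, adjusted p = 0.0692). The median of the 13 was near 0, at -0.0030. Bcan, a proteoglycan of the matrix around astrocytes and progenitors, stood at 15.8, 19.8 and 24.9 CPM against 5.23, 5.59 and 4.58 CPM (-1.97 ± 0.22, adjusted p = 0.00133).

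Some genes of fibroblasts and of fibrillar collagen were lower: 5 of 14 fibroblast markers were called, Cldn11, Igf2, Fmod, Col1a1 and Col1a2, and 9 were not. Col1a1 and Col1a2 encode the chains of type I collagen. Col1a1 stood at 98.8, 81.2 and 56.3 CPM in young and 21.9, 30.1 and 10.3 CPM in middle-aged lesions (log2 difference -1.92 ± 0.33, adjusted p = 0.0107), and Col1a2 at 626, 604 and 399 CPM against 218, 254 and 121 CPM (-1.46 ± 0.26, adjusted p = 0.0133). In both ages replicate 3 was the lowest pool for these genes, and the groups stayed apart. In naive tissue Col1a1 was at 2.33 ± 0.92 CPM in young and 0.951 ± 0.359 CPM in middle-aged pools (SD, n = 3), so that the lesions of both ages were above it. All 15 collagens of the list had a negative difference, with a median of -0.58 and sums of 1059 to 1536 CPM against 443 to 879.5 CPM, and 6 were called lower with the lesion pools alone. Fmod, a small proteoglycan that shapes collagen fibrils, stood at 24.7, 23.4 and 16.04 CPM against 8.63, 5.27 and 8.20 CPM (-1.54 ± 0.24, adjusted p = 0.00794), and Prelp, of the same family, at 27.9, 24.6 and 26.3 CPM against 13.6, 10.6 and 12.3 CPM (-1.11 ± 0.17, adjusted p = 0.00517). Gjb2, the connexin 26 of meningeal cells and others, stood at 59.1, 34.1 and 21.0 CPM against 11.95, 7.11 and 11.4 CPM (-1.91 ± 0.31, adjusted p = 0.00912). The 14 fibroblast markers tested had a median of -1.25 and summed to 2233 to 2798 CPM in young and 1071 to 1478 CPM in middle-aged lesions. Cldn11, which is also a myelin gene, was the largest part of these sums, with means of 871 and 370 CPM. Other fibroblast markers overlapped between the ages, among them, chosen after their values were seen, Dcn with means of 145 CPM in young and 132 CPM in middle-aged lesions (-0.13) and Lum with 109 and 96.8 CPM (-0.17). How much cord surface each laser cut took is not given in the sources used here, and more fibroblasts in a lesion and more meninges in a cut cannot be told apart.

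The growth factor Igf2 had the largest fall among called genes with a mean of at least 1 log2 CPM in lesions. It stood at 117, 106 and 61.8 CPM in young and 17.8, 12.1 and 12.8 CPM in middle-aged lesions, a log2 difference of -2.74 ± 0.34, or 6.67-fold lower (adjusted p = 0.00175), and it was called without any 1 of the 12 pools. In naive tissue it stood at 35.2 ± 8.6 CPM in young and 39.8 ± 20.3 CPM in middle-aged pools (SD, n = 3), so the young lesions lay above the naive level and the middle-aged lesions below it. The long noncoding RNA H19, which shares an imprinted control region with Igf2, stood at 13.7, 15.6 and 14.5 CPM against 2.24, 2.24 and 2.59 CPM (-2.63 ± 0.29, adjusted p = 0.00143), with very little spread in either age. Both lie on the minus strand of chromosome 7, H19 at 142575529 to 142578143 and Igf2 at 142650766 to 142666816, and Igf2 overlaps the antisense gene Igf2os, whose reads cannot be told from its own without strand. Igf2 was the only called gene of 13 in the insulin-like growth factor system, which had 6 positive and 7 negative differences. In the model of the lesion pools alone 2 of the 13 were called higher and 3 lower, Igf2 among the latter. Apcdd1, an antagonist of Wnt, stood at 15.9, 24.6 and 19.9 CPM against 11.04, 7.59 and 12 CPM (-0.98 ± 0.22, adjusted p = 0.0450), the only call among 16 Wnt genes, 15 of which had a negative difference (median -0.50). The largest falls on no list included Tmem132c, a membrane protein, at 6.46, 6.67 and 5.42 CPM against 1.99, 1.118 and 1.81 CPM (-1.91 ± 0.33, adjusted p = 0.0107), and Cfap157, a gene of cilia, at 8.74, 7.21 and 2.94 CPM against 1.58, 1.28 and 1.99 CPM (-1.96 ± 0.41, adjusted p = 0.0323).

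**Figure D4:**
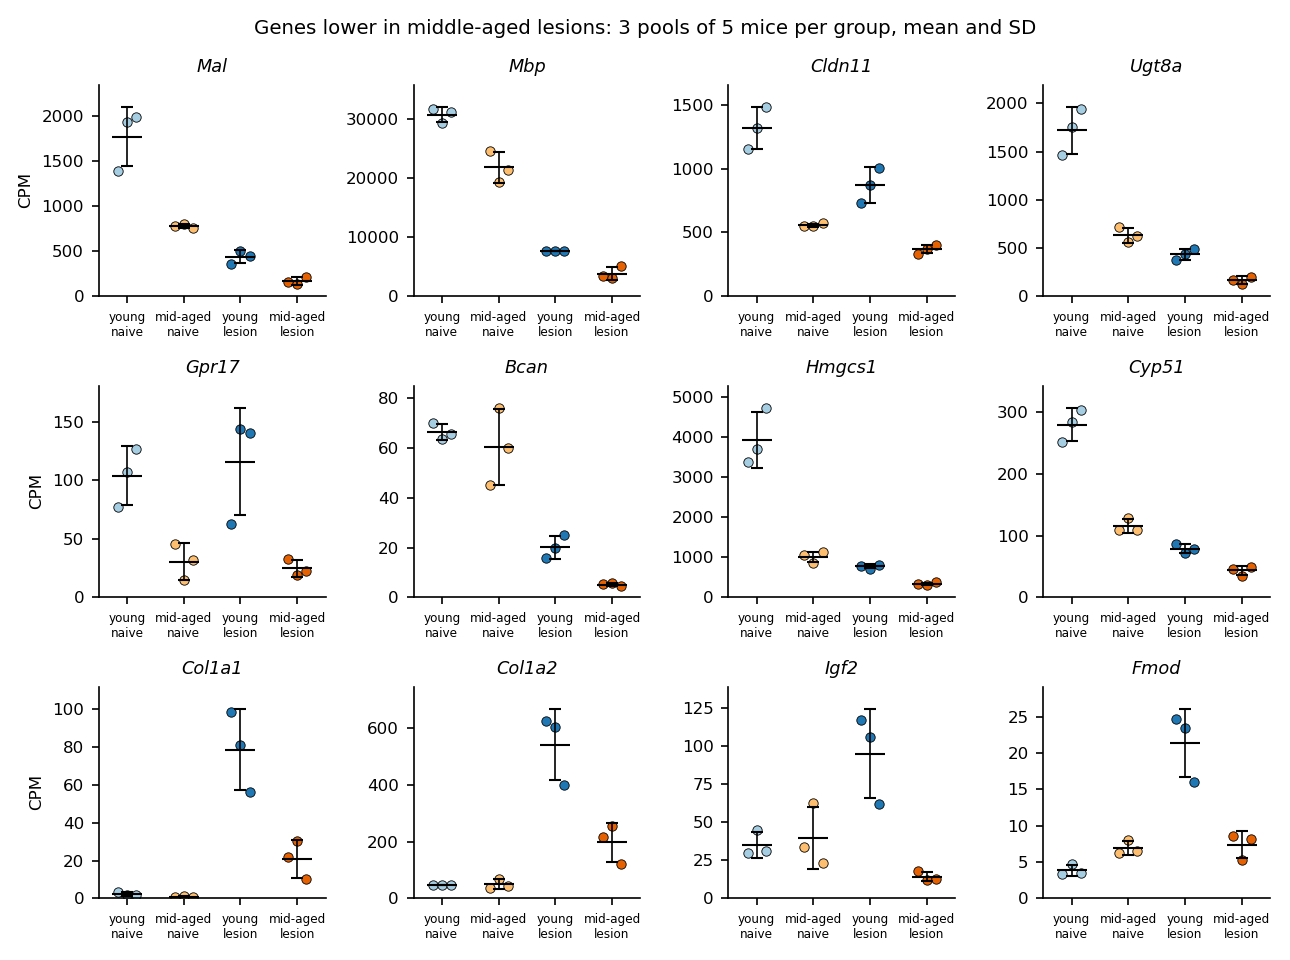
CPM (y axes, from 0) in each pool for 12 genes called lower in the middle-aged lesions, laid out as for the higher genes: myelin (Mal, Mbp, Cldn11, Ugt8a), progenitor and matrix (Gpr17, Bcan), sterol synthesis (Hmgcs1, Cyp51) and fibroblast genes (Col1a1, Col1a2, Igf2, Fmod). For the myelin and sterol genes the naive pools differ by age in the same direction, though Mbp was not called there. Col1a1, Col1a2, Igf2 and Fmod are highest in the young lesions. Of these, Col1a1 was also lower in middle-aged naive pools (log2 difference -1.32), and this was not called.

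Several programmes that could differ with age were not called in any member. Among the lists without a call were type I interferon response (20 genes, median -0.17), class II antigen presentation (11 genes, all positive, median 0.48), class I presentation (12 genes, all positive, median 0.26), complement (16 genes, median 0.31), cytosolic ribosomal proteins (24 genes, all positive, median 0.16), nuclear genes of the respiratory chain (21 genes, median 0.05), glycolysis (21 genes, median 0.15), unfolded protein response (18 genes, median 0.19) and antioxidant genes of Nrf2 (18 genes, median 0.06). For class I presentation, H2-K1 stood at 208, 273 and 262 CPM against 471, 373 and 289 CPM (log2 difference 0.61 ± 0.18, adjusted p = 0.145) and H2-D1 at 256, 367 and 329.5 CPM against 565, 452 and 378 CPM (0.55 ± 0.16, adjusted p = 0.135). For class II, the invariant chain Cd74 stood at 44.5, 62.9 and 45.0 CPM against 68.5, 81.6 and 61.8 CPM (0.48 ± 0.21, adjusted p = 0.457). The model of the lesion pools alone called 5.44% of all genes. There 3 complement genes were called higher and 2 lower, and 1 interferon gene lower. It called 1 Nrf2 gene higher and 2 lower, 1 glycolysis gene each way, and 2 unfolded protein genes and 1 class II gene higher. DESeq2 called 2 class I genes higher. The immediate early genes had no call, but 6 of the 15 tested were called higher with the lesion pools alone. Among them was Ier3 at 7.12, 8.68 and 9.64 CPM against 17.8, 20.4 and 17.4 CPM (1.13 ± 0.28, adjusted p = 0.0728 with all pools and 0.00206 with the lesion pools alone). With all 12 pools in edgeR's model a difference in these programmes was not detected at 3 pools per group, which does not show that there was none.

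No gene of the remaining cell type lists was called. Of 12 neutrophil markers 5 were tested, with sums of 73.9 to 76.7 CPM in young and 69.3 to 95.9 CPM in middle-aged lesions, most of it Csf3r, the receptor of a growth factor of granulocytes. T and natural killer cells (3 of 14 tested, sums of 6.32 to 12.02 CPM over both ages) and B cells (2 of 9 tested, sums of 11.9 to 16.3 CPM) had few tested genes, and no erythroid gene was tested. The 12 neuronal genes (median -0.0042) and the 12 endothelial genes (median 0.20) had differences of both signs. Of 9 pericyte genes 8 had a negative difference (median -0.39), and of 8 dendritic cell genes 7 had a positive one (median 0.43). Mfsd2a, a lipid carrier of barrier endothelium, stood at 8.15, 11.5 and 10.8 CPM against 5.06, 6.31 and 7.08 CPM (log2 difference -0.72 ± 0.22, adjusted p = 0.172) and Vtn, made by pericytes, at 27.6, 28.1 and 21.2 CPM against 13.1, 11.8 and 15.1 CPM (-0.94 ± 0.23, adjusted p = 0.0689). Selp, the adhesion molecule P-selectin, stood at 3.08, 2.33 and 0.904 CPM against 6.64, 5.11 and 14.9 CPM (2.07 ± 0.52, adjusted p = 0.0979). None of 9 Schwann cell genes was called (median 0.10).

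Much of the age difference in lesions had the same sign in uninjured white matter. In the naive pools 603 genes (3.80%) were called between the ages with all 12 pools in the model, 321 (2.02%) higher and 282 (1.78%) lower, but 71 when only the naive pools were modelled. Of the 38 genes higher in middle-aged lesions 12 were also called higher in middle-aged naive tissue and none lower, and 31 (81.6%) had a positive difference there, where 51.6% of all genes did. Of the 144 lower genes 53 were also called lower in naive tissue and 2 higher, Serpina3n and Prelp, and 122 (84.7%) had a negative difference, where 48.0% of all genes did. The 65 genes called the same way in both were 35.7% of the calls in lesions and 10.8% of those in naive tissue. Naive and lesion pools were separate mice, but both comparisons drew on the same estimate of spread.

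Naive values are given for some of the lists. Of the 20 cholesterol genes 14 were called lower in middle-aged naive tissue, with a median of -1.24 there against -0.66 in lesions, and Hmgcs1 was at 3931 ± 697 CPM in young and 1008.5 ± 131 CPM in middle-aged naive pools (SD, n = 3). Of the 16 structural myelin genes 9 were called lower there, with a median of -0.70 against -0.88. For Cldn11 the log2 difference was -1.24 in both. The fibroblast list had a median of 0.11 in naive tissue against -1.25 in lesions, with 1 naive call. The interferon list, without a call in lesions, had 7 calls higher in naive tissue and a median of 1.31. These are each comparison's own values, and the difference between them was tested gene by gene only.

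**Figure D5:**
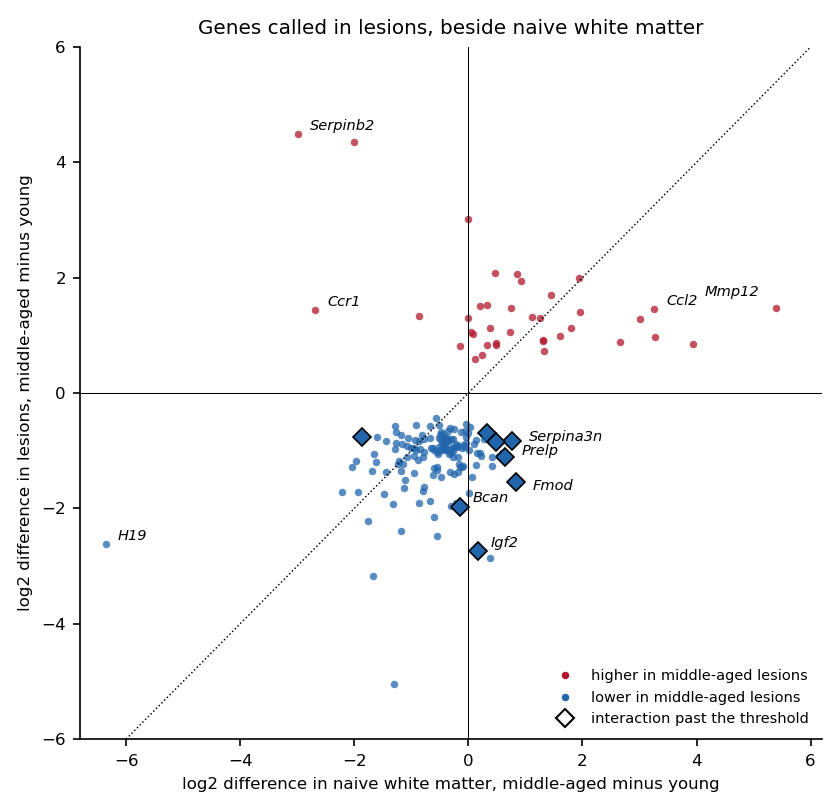
Log2 difference in lesions (y axis) against that in naive white matter (x axis), both middle-aged minus young, for the 182 genes called in lesions, with those higher in red and lower in blue. The dotted line marks equal differences, and diamonds mark the 8 lower genes whose 2 differences differed from each other by the interaction test; most points lie on the same side of 0 on both axes, and naive values of genes with few naive reads, such as Mmp12, H19, Ccr1 and Serpinb2, are imprecise.

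The test of the interaction, the age difference in lesions minus that in naive tissue, called 22 genes (0.139%), 9 (0.0567%) positive and 13 (0.0819%) negative, and 3 to 56 genes when 1 of the 12 pools was left out. It called 8 of the 144 lower genes and none of the 38 higher ones. Igf2 (interaction -2.91 ± 0.46, adjusted p = 0.0264), Fmod (-2.37, adjusted p = 0.0237), Bcan (-1.83, adjusted p = 0.0264), Prelp (-1.75, adjusted p = 0.0101) and Serpina3n (-1.60, adjusted p = 0.0340) had a lower difference in lesions than in naive tissue. In naive tissue Prelp and Serpina3n were called higher with age, and the log2 differences of Igf2 (0.17), Fmod (0.84) and Bcan (-0.14) were not called.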

How the data were processed

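The deposited table holds raw read counts per Ensembl gene in 12 pools, not normalized. Per the submitters' processing notes the authors used FastQC 0.11.4, TopHat2 2.0.10, Bowtie 1.1.2, featureCounts and GRCm38; the strand setting, the annotation release and the treatment of shared reads are not given in the sources used here. RNA was amplified during library building, so counts are not independent molecules, and floors cover counting error only. Ages and the 72 h are from the study's methods.

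Symbols from GENCODE M21 matched 45143 of 46078 identifiers (98.0%). Genes were filtered by edgeR 4.0.16 (filterByExpr by group), scaled by TMM and fitted with 1 coefficient per group over all 12 pools in R 4.3.3. The quasi-likelihood F test was adjusted by Benjamini-Hochberg across all 15866 genes, called at 0.05. The study itself used DESeq2 between pairs of groups. The SE is the log2 difference divided by the square root of F. CPM are counts over the pool's TMM-scaled total of the tested genes, in the usual unit, and the floor in CPM uses the plain total. Nothing shows that pools of a group came from separate batches. The p-values set a difference against the spread between pools of the same group, estimated over the naive and lesion groups together. Scripts were tested on simulated data.

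Named genes were the 12 highest and 12 lowest log2 differences among called genes with at least 1 log2 CPM, up to 6 called members per list, up to 3 members by smallest p in lists with fewer than 2 calls, and for cell lists also 3 by level, Hcar2 and Cd36, and up to 6 interaction genes per direction. The 18 lists of cell types, the 41 of programmes and the members were chosen with earlier results of these data known, and 2 further lists were added after values were seen. Alternatives were other scalings, filters, DESeq2 1.42.0, a replicate block, only the pools compared and leaving out each pool.

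Same-numbered lesion pools of the 2 ages correlated at 0.031, -0.046 and -0.0058 in their deviations from the group means, so the numbers were not used as pairs. Results for a few genes are not reported here.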

Additional observations from a re-analysis of the deposited data

Results flagged for a closer look

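In 14 named genes the age difference in lesions differed from that in naive white matter by the interaction test (edgeR's quasi-likelihood test, adjusted over all genes tested), on the log2 scale and as lesion minus naive. It was negative for Igf2 (-2.91), Postn (-2.44), Fmod (-2.37), Lyz2 (-1.89), Bcan (-1.83), Prelp (-1.75), F13a1 (-1.70) and Serpina3n (-1.60), and positive for Rab7b (1.58), Tmem163 (1.63), Tm7sf2 (1.63), Nkiras2 (1.67), Uhrf1 (2.33) and Cdca7l (3.24).

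Several of these were not called between the ages in lesions and differed in naive tissue instead. Lyz2, the lysozyme of myeloid cells, averaged 6118 CPM in young and 7360.4 CPM in middle-aged lesions, and 21.5 and 95.7 CPM in the naive pools of the same ages (adjusted p = 0.00275 for the interaction). F13a1, a marker of recruited macrophages, averaged 223 and 215 CPM in lesions and 1.74 and 5.50 CPM in naive tissue. Uhrf1 and Cdca7l, genes of dividing cells, averaged 47.6 and 48.7 CPM, and 24.2 and 24.7 CPM, in lesions, but 2.93 and 0.595 CPM, and 1.82 and 0.196 CPM, in naive tissue, so their naive values in middle-aged mice rest on few reads. Tm7sf2, a reductase of sterol synthesis, averaged 10.1 and 6.77 CPM in lesions and 55.9 and 12.1 CPM in naive tissue.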

How the results depend on the processing

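No named result changed direction under any alternative run. Beside the 182 genes called in lesions (38 higher, 144 lower), DESeq2 called 458 (144 and 314), a filter of any count 437 (121 and 316), and the 6 lesion pools alone 818 (325 and 493). Scaling by library totals called 32 higher and 195 lower (14.1% higher). Leaving out 1 pool gave 45 to 410 genes (6 to 120 higher, 38 to 290 lower). Settings added after seeing the data used only the lesion pools: with the replicate block they called 775 genes (291 and 484), and without young replicates 1, 2 and 3 they called 571 (195 and 376), 388 (153 and 235) and 333 (113 and 220), and without middle-aged replicates 1, 2 and 3 they called 319 (113 and 206), 539 (216 and 323) and 1385 (625 and 760). The check given under the methods found no sign of pairing between same-numbered lesion pools of the 2 ages, and a shared batch was not tested. With the replicate block over all pools the calls were 189 (32 higher, 157 lower), of which 160 were among the 182, and the call was lost for 7 described genes, Il1b, Slamf8, Cfap157, Fabp4, Gadd45a, Apcdd1 and Nnat.

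The interaction called 22 genes in the model used, 254 by DESeq2, 329 with any count, and 3 to 56 without 1 pool. Age in naive tissue called 603 genes, 1111 by DESeq2, 1153 with any count, 71 with only the naive pools, and 261 to 800 without 1 pool. Of 66 called genes described, 21 were called without any 1 of the 12 pools, and 60 under all 4 scalings. The cause of these shifts was not tested. At about 0.25 CPM per 3 counts, genes such as Il1b and Serpinb2 are limited by depth.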

Other observations

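Beside Igf2 and H19, 3 other imprinted genes were called lower. Of 18 imprinted genes tested, from a list put together after values were seen, 5 were called lower and 13 not called, where 0.908% of all genes tested were called lower, and 3 had a positive difference (median log2 difference -0.27). Since the list was chosen with these values known, its count is a description. The 3 are Peg10 (-1.23 ± 0.27), Nnat (-1.04 ± 0.23) and Ndn (-0.71 ± 0.16). Of 15 collagens outside the first list, also chosen after values were seen, 5 were called lower and 10 not called (median -0.92). This count too is a description, beside the 0.908% of all genes tested that were called lower. The 5 are Col11a2 (-2.49), Col9a3 (-1.41), Col11a1 (-1.25), Col23a1 (-1.11) and Col4a6 (-1.04), at adjusted p from 0.00904 to 0.0387.

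Higher genes on no list, named after their values were seen, include receptors and enzymes of phagocytes and leukocytes. Rgs1, a brake on chemokine receptor signals, averaged 57.5 CPM in young and 141 CPM in middle-aged lesions (log2 difference 1.29 ± 0.22, adjusted p = 0.00921). Il7r, the interleukin-7 receptor, averaged 28.2 and 71.3 CPM (1.34 ± 0.25, adjusted p = 0.0200), Clec4d, a lectin receptor of myeloid cells, 12.9 and 34.3 CPM (1.41 ± 0.21, adjusted p = 0.00819), and Fcgr2b, the inhibitory Fc receptor, 146 and 273 CPM (0.91 ± 0.20, adjusted p = 0.0408). Thbs1, a matrix glycoprotein that binds Cd36, averaged 324 and 711 CPM (1.13 ± 0.23, adjusted p = 0.0271).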
